A study of Rattus norvegicus with 6 samples.

Results

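Syndecans and glypicans are the proteoglycans that carry heparan sulfate at the cell surface, and their transcripts were examined in chondrocytes that had received retinoic acid (RA). Members were the genes whose symbol in the files was Sdc1, Sdc2, Sdc3, Sdc4, Gpc1, Gpc2, Gpc3, Gpc4, Gpc5 or Gpc6, and 9 of these 10 were found among 18923 genes, 4 syndecans and 5 glypicans. The expression of Gpc5 was not analysed here. The cells were primary chondrocytes of wild-type (WT) Sprague-Dawley rats, isolated by collagenase from cartilage of female newborns aged 24 h, and used at passage 1 or 2. All samples grew in high-glucose DMEM with 10% FBS and penicillin-streptomycin. The CON group (n = 3) had this medium alone for 24 h, and the RA group (n = 3) had 1 µM all-trans RA in it for 24 h. Poly(A) RNA was sequenced to ask which transcripts differ after RA, and the study described the samples as independent without saying which animals each came from, so that p-values measure the spread between these cultures.

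Heparan sulfate is a long, sulfated sugar chain that is built on serines of a core protein in the Golgi and binds growth factors, morphogens and matrix proteins. Syndecans cross the membrane and end in a short cytoplasmic tail that meets the cytoskeleton, whereas glypicans are held on the outer leaflet by a glycosylphosphatidylinositol (GPI) anchor and can be cut free. In cartilage these chains set how far hedgehog, FGF, BMP and Wnt proteins travel and how strongly they signal, and loss of Gpc3, Gpc6 or of the chain polymerases alters skeletal growth.

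The RefSeq table of rat promoters (build GRCr8) held 7 of the 10 genes, Gpc5 among them, with no entry for Sdc2, Gpc1 and Gpc6. The 250 bases before the start of the gene are shown for the 2 members with an entry that had the strongest rise and fall, Sdc1 and Gpc3, and for Gpc4, which lies beside Gpc3 on chromosome X with 3 other annotated genes between them. Capitals mark the GC box, the letters GGGCGG or, on the other strand, CCGCCC. Sequences run 5′ to 3′ in the direction of the gene. The Sdc1 window is chr6:37281791-37282040 on the + strand, the Gpc3 window chrX:137157599-137157848 on the - strand and the Gpc4 window chrX:136676058-136676307 on the - strand.
Sdc1: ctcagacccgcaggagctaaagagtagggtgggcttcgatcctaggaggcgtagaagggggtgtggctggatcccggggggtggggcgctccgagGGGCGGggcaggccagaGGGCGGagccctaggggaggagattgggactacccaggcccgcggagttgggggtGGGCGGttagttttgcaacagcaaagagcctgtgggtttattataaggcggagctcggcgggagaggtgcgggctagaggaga
Gpc3: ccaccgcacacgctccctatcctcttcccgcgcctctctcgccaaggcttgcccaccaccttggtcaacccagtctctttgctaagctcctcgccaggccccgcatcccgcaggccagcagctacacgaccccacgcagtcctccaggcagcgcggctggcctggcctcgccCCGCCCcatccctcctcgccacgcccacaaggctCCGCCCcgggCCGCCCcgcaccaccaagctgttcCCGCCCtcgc
Gpc4: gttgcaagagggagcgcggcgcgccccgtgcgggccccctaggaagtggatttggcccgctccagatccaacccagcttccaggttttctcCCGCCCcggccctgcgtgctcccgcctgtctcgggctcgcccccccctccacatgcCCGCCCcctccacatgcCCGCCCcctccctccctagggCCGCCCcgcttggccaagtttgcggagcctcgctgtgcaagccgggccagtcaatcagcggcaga

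The Sdc1 window held 3 GC boxes, all in the direction of the gene, and the Gpc3 and Gpc4 windows held 4 each, all on the opposite strand. In Gpc3 the 4 boxes lay in the last 78 bases before the start, whereas in Gpc4 the nearest ended 60 bases before it. All 7 member windows held at least 1 GC box, against 30.5% of 33469 promoter windows of the same length, and their GC content ran from 60.8% to 80.0%, against a median of 51.2%. Retinoid receptors bind pairs of the letters AGGTCA or close variants. Allowing AGGTCA or its variant GGGTCA, and the variant AGTTCA or the variant GGTTCA, on both strands, a single copy was present in 1 of the 7 windows, that of Sdc4, against 39.1% of all windows. A pair in the same direction with 5, 2 or 1 bases between the copies was present in none of the 7, against 0.326%, 0.137% and 0.194% of all windows. These matches describe letters in these windows only.

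Between 29370025 and 38007486 reads were counted per sample. A DEG had to pass an adjusted p of 0.05 (edgeR, Benjamini-Hochberg over all genes tested) and to differ by more than 0.58 on the log2 scale. Enough reads for the test were present for 13438 genes, of which 667 (4.96%) were DEGs. DEGs higher in RA made up 2.67% and DEGs lower in RA 2.29% of the genes tested. All 5 tested retinoid response genes were DEGs higher in RA. They were Cyp26a1 and Cyp26b1, which degrade RA, Dhrs3, which had the highest mean FPKM of the list, Tgm2 and Rarb. Rarb, a retinoic acid receptor at 0.128 to 0.825 FPKM, was a DEG in only 1 of 6 fits that each left out a sample. Tgm2 was a DEG in 5 of these fits, all but that without RA replicate 3. CON replicate 1 correlated with the other CON samples at r of 0.981 and 0.983 across genes, whereas the 3 RA samples correlated with each other at about 0.989, and values without CON replicate 1 are given beside several results. Chondrocyte markers were abundant in every sample, and 9 of 10 were DEGs lower in RA, all but Sox9 (8 without CON replicate 1, CON replicate 3 or RA replicate 1). Their summed level was 8030 to 9928 FPKM in CON and 5034 to 5364 FPKM in RA.

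Levels are given in FPKM, the count scaled to transcript length and to the reads counted in the sample, which allows genes of different length to be compared. Sdc2 was the most abundant member in both groups, and higher than 97.5% of tested genes in CON. Gpc1 followed in CON, then Sdc1, then Sdc3 and Sdc4, whose ranges over the samples overlapped, then Gpc6 and Gpc4, which also overlapped, and then Gpc3 and Gpc2. In RA the order was Sdc2, then Sdc1 and Gpc1 with overlapping ranges, then Sdc3 and Sdc4 with overlapping ranges, then Gpc4 and Gpc6 with overlapping ranges, then Gpc3 and Gpc2. Sdc1 and Gpc1 were therefore separate in CON and could not be told apart by level in RA.

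**Figure D1:**
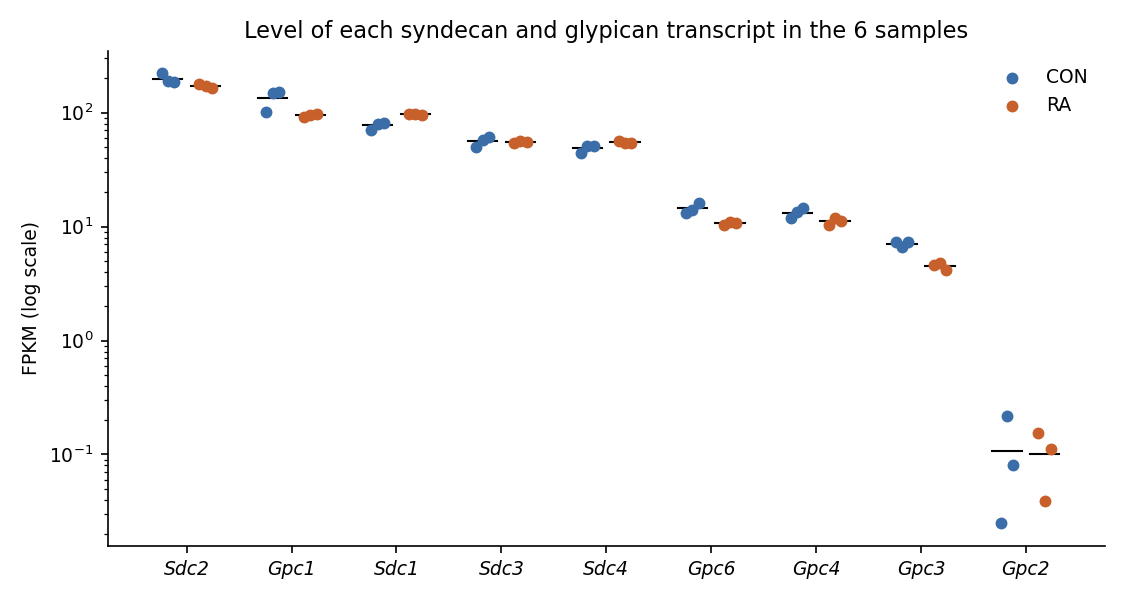
FPKM of the 9 members on a log scale, with each point a sample (CON blue, RA orange) and each line the mean of 3 samples. Sdc2 lies highest and Gpc2 near 0.1 FPKM, and the RA points of Gpc3 all lie below its CON points.

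Among the members, 8 had enough reads to be tested, all but Gpc2, and 1 of these, Gpc3, was a DEG, lower in RA. By the adjusted p alone, without the fold change limit, 1 member rose (Sdc1) and 2 fell (Gpc3 and Gpc6), where the same rule called 5.31% of all tested genes higher and 4.50% lower. The 4 tested glypicans all had a log2 fold change below 0, with a median of -0.47, and the 4 syndecans had 2 above and 2 below 0, with a median of 0.058, where the median of all tested genes was -0.0057. In bulk RNA, fewer cells that express a gene and less of its RNA per cell cannot be told apart.

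Gpc3 encodes a glypican that binds hedgehog proteins and restrains body growth. Its level was 7.38, 6.64 and 7.26 FPKM in CON replicates 1, 2 and 3, and 4.59, 4.77 and 4.20 FPKM in RA replicates 1, 2 and 3. The highest RA sample lay below the lowest CON sample. The log2 fold change was -0.66 (SE 0.106, 95% interval -0.91 to -0.42, adjusted p = 0.0057 with edgeR's quasi-likelihood test), so that CON was 1.58-fold above RA. It was a DEG in all 6 fits that left out a sample, at log2 fold changes of -0.71 to -0.61. With limma on log2(FPKM + 1) it was -0.55 and not a DEG, a scale that understates the change of genes at this level.

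Gpc6, a glypican of the growth plate whose loss shortens limbs, had 13.2, 14.1 and 16.0 FPKM in CON and 10.4, 11.1 and 10.7 FPKM in RA. All RA samples were below all CON samples. On the log2 scale the fold change was -0.44 (SE 0.0921, 95% interval -0.66 to -0.23, adjusted p = 0.0187 with edgeR), past the adjusted p but not the fold change limit. The adjusted p was 0.0611 without CON replicate 2, and 0.0903, 0.0686 and 0.0879 without RA replicate 1, 2 and 3.

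Gpc1, the glypican studied most as a partner of FGF2, had 101, 149 and 151 FPKM in CON and 91.7, 95.6 and 98.1 FPKM in RA. CON replicate 1 lay closer to the RA samples than to the other CON samples, though still above all of them. The log2 fold change was -0.50 (SE 0.142, 95% interval -0.83 to -0.18, adjusted p = 0.0648 with edgeR), and Gpc1 was not a DEG. DESeq2 gave an adjusted p of 0.00489 at the same fold change, which also made it no DEG. Without CON replicate 1 it was a DEG, with a log2 fold change of -0.67 (SE 0.0463, adjusted p = 1.83e-06 with edgeR). The other 5 fits that left out a sample gave -0.53 to -0.39 and no DEG.

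Gpc4, a glypican of Wnt and BMP signalling, had 11.8, 13.5 and 14.5 FPKM in CON and 10.4, 11.8 and 11.1 FPKM in RA. The groups overlapped through CON replicate 1 and RA replicate 2. Its log2 fold change of -0.27 (SE 0.0969, 95% interval -0.49 to -0.049) had an adjusted p of 0.134 with edgeR, and 0.00525 without CON replicate 1, at -0.35. Leaving out any other sample gave adjusted p of 0.197 to 0.342 with edgeR. The ratio of Gpc4 to Gpc3 FPKM, its neighbour on chromosome X, was 1.60, 2.04 and 1.99 in CON and 2.25, 2.48 and 2.64 in RA. Every RA ratio was above every CON ratio (exact two-sided permutation p = 0.10, the smallest that 3 against 3 samples can give). Adjusted over the 18 sums, shares and ratios computed, this p was 0.15.

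Gpc2, a glypican of the developing nervous system, was barely detected. It had 2, 17 and 8 reads in CON and 12, 3 and 9 reads in RA, and was not tested. No difference between the groups was detectable at this depth.

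Sdc1, the syndecan best known from epithelia and plasma cells, had 71.1, 79.4 and 81.3 FPKM in CON and 98.0, 97.7 and 95.4 FPKM in RA. All RA samples were above all CON samples. The log2 fold change was 0.31 (SE 0.0678, 95% interval 0.16 to 0.47, adjusted p = 0.022 with edgeR), past the adjusted p but not the fold change limit, and RA was 1.24-fold above CON. The adjusted p was 0.079 without CON replicate 2, and 0.0884, 0.107 and 0.0885 without RA replicate 1, 2 and 3. Epithelial markers were low in both groups, with a summed level of 5.12 to 5.56 FPKM in CON and 4.27 to 5.04 FPKM in RA. None of the 4 tested markers among the 8 listed was a DEG, Krt8 being the highest at 4.24 to 4.64 FPKM in CON and 2.92 to 3.82 FPKM in RA. Epcam had 0.455 to 0.77 FPKM, and Cdh1, Krt5 and Krt14 at most 0.032 FPKM in any sample.

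Sdc4, which co-operates with integrins at focal adhesions and binds PKC alpha through its tail, had 43.8, 51.4 and 51.1 FPKM in CON and 56.1, 54.3 and 54.2 FPKM in RA. The RA samples were all above the CON samples, by a narrow margin. Its log2 fold change of 0.16 (SE 0.0761, 95% interval -0.018 to 0.33) had an adjusted p of 0.257 with edgeR, and Sdc4 was not a DEG. Without CON replicate 1, its lowest sample, the log2 fold change was 0.081.

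Sdc2, the main syndecan of mesenchymal cells and a fibronectin matrix partner, had 222, 189 and 186 FPKM in CON and 179, 173 and 165 FPKM in RA. All RA samples were below all CON samples, and CON replicate 1 was the highest of the 6. On the log2 scale the fold change was -0.22 (SE 0.0742, 95% interval -0.39 to -0.054, adjusted p = 0.108 with edgeR). Without CON replicate 1 it was -0.14, with an adjusted p of 0.0457 (edgeR). Leaving out any other sample gave adjusted p of 0.0853 to 0.345 with edgeR.

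Sdc3, the syndecan of proliferating limb chondrocytes, had 49.6, 57.1 and 61.2 FPKM in CON and 53.8, 56.2 and 54.9 FPKM in RA. The RA values lay within the range of the CON values. The log2 fold change was -0.040 (SE 0.0843, 95% interval -0.23 to 0.15, adjusted p = 0.812 with edgeR), and it was 0.040 without CON replicate 3 and -0.12 without CON replicate 1.

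**Figure D2:**
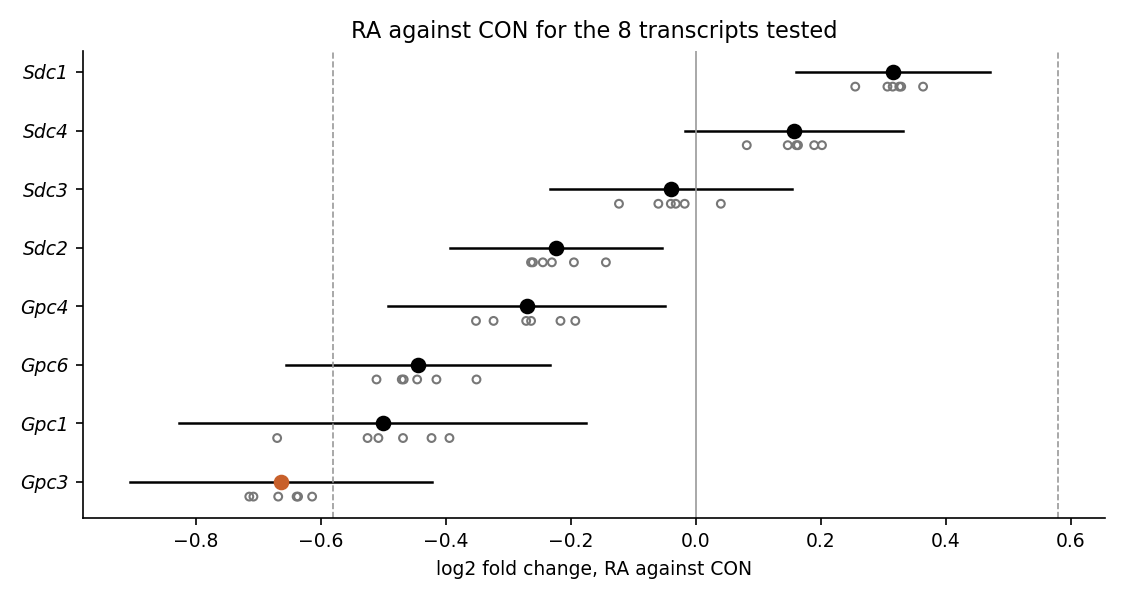
Log2 fold change of RA against CON for the 8 tested members, with 95% intervals as bars and the 6 fits that each left out a sample as open circles below. The dashed lines mark the fold change limit of 0.58 in either direction, and only Gpc3, in orange, was a DEG.

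Over the 8 tested members, 2 (Sdc1 and Sdc4) had all RA FPKM above all CON FPKM and 4 (Sdc2, Gpc1, Gpc3 and Gpc6) had all below, where 18.9% and 13.3% of all tested genes did so. The coefficient of variation was larger in CON than in RA for 7 of the 8, all but Gpc3, as it was for 71.6% of all tested genes. It was largest for Gpc1 in CON, at 21.1%, and 3.36% for the same gene in RA.

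Syndecan transcripts summed to 386, 377 and 380 FPKM in CON and 386, 381 and 369 FPKM in RA. The group means of 381 ± 4.49 and 379 ± 8.89 FPKM (SD, n = 3) could not be told apart (exact two-sided permutation p = 0.9), and the sign of the difference changed without CON replicate 1 (0.181) or RA replicate 3 (2.56). Glypican transcripts summed to 133, 183 and 188 FPKM in CON and 117, 123 and 124 FPKM in RA. All RA sums were below all CON sums, a mean difference of -27.8% (exact two-sided permutation p = 0.10, the smallest possible). The adjusted p of this test was 0.15 over the 18 sums, shares and ratios computed. Leaving out Gpc1, which makes up most of that sum, the remaining glypicans went from 34.9 ± 2.74 to 26.4 ± 1.15 FPKM (SD, n = 3).

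Syndecans accounted for 74.3%, 67.3% and 66.9% of the summed FPKM in CON and 76.7%, 75.5% and 74.8% in RA. The RA shares were all above the CON shares, with CON replicate 1 close to them. Sdc1 made up 13.7%, 14.2% and 14.3% of the sum in CON and 19.4%, 19.4% and 19.3% in RA, with no overlap. The ratio of Gpc1 to Sdc1 FPKM was 1.42, 1.88 and 1.85 in CON and 0.937, 0.979 and 1.03 in RA. Each of these 3 quantities had an exact two-sided permutation p of 0.10, and each adjusted p was 0.15 over the 18 sums, shares and ratios computed. Of the 18, only the syndecan sum, the glypican sum and the syndecan share were planned as tests. The Gpc1 to Sdc1 ratio had to separate the groups, since all RA samples were lower in Gpc1 and higher in Sdc1. Its p therefore adds nothing to the values of each gene.

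**Figure D3:**
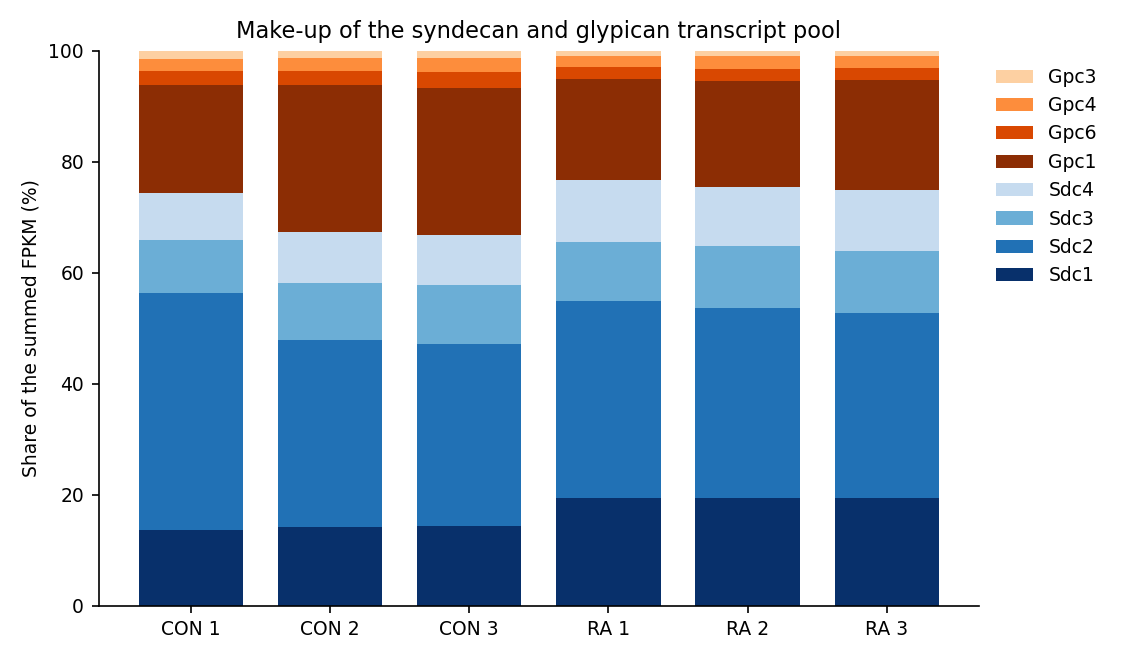
Share of each member in the summed FPKM of the syndecans and glypicans, 1 bar per sample, syndecans in blue and glypicans in orange (Gpc2, at most 0.0385%, is not drawn). The Sdc1 segment is 13.7% to 14.3% in CON and 19.3% to 19.4% in RA. The Gpc1 segment of CON replicate 1, at 19.4%, lies within the RA range of 18.2% to 19.9%.

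The chains of these proteins are made, trimmed and released by other enzymes, which were described from lists of known genes. Among all tested genes, 2.67% were DEGs higher and 2.29% DEGs lower in RA. Of 11 tested enzymes that build the linker and the chain, 2 were DEGs lower in RA and none was higher. Xylt1, the xylosyltransferase that starts the linker and also primes chondroitin sulfate, had 46.5, 51.1 and 52.3 FPKM in CON and 21.0, 22.8 and 20.3 FPKM in RA, and fell by 1.24 on the log2 scale (SE 0.0765, adjusted p = 5.59e-05 with edgeR). Extl1, an exostosin-like glycosyltransferase, fell by 0.88 (SE 0.134). Ext2, a chain polymerase subunit and the most abundant of the list, had 82.6 ± 7.05 FPKM in CON and 76.5 ± 2.10 FPKM in RA (SD, n = 3) and was not a DEG. Its log2 fold change was -0.12, and -0.19 without CON replicate 1, where it passed the adjusted p (0.0295 with edgeR). Extl3, which adds the first heparan sulfate sugar and was singled out after its values were seen, passed the adjusted p (0.00375 with edgeR) but not the fold change limit, at 0.51. The median of the list was -0.081.

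Of 10 tested enzymes that sulfate or epimerise the chain, 2 were DEGs higher and 2 lower, with a list median of -0.14. Hs6st2, the 6-O-sulfotransferase with the highest mean of the list over all samples, though not in RA, had 31.3, 33.3 and 32.8 FPKM in CON and 19.9, 18.1 and 17.4 FPKM in RA, and fell by 0.83 (SE 0.0709, adjusted p = 0.000237 with edgeR). Ndst3, an N-deacetylase and N-sulfotransferase, had 1.37 to 2.31 FPKM in CON and 4.04 to 4.29 FPKM in RA, a log2 fold change of 1.23 (SE 0.187). Hs3st1, a 3-O-sulfotransferase, had at most 0.231 FPKM in CON and 0.963 to 1.15 FPKM in RA, a log2 fold change of 2.50 (SE 0.256). Hs3st3b1, a related 3-O-sulfotransferase, had a log2 fold change of -0.90 and was a DEG in only 1 of 6 fits that left out a sample, the fit without CON replicate 1 (range -1.03 to -0.81).

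Outside the cell, Sulf2 removes 6-O-sulfates and Hpse (heparanase) cuts the chain. Of 3 tested genes of this list, Hpse was a DEG, lower in RA at -0.62 (SE 0.121), and remained so without CON replicate 1 or 3 but not without CON replicate 2 or any RA replicate (-0.69 to -0.53). Sulf2 had 105, 102 and 107 FPKM in CON and 133, 141 and 144 FPKM in RA, a log2 fold change of 0.40 past the adjusted p (0.00375 with edgeR) and not the fold change limit. Of the secreted heparan sulfate proteoglycans, Agrn and Col18a1 were tested. Col18a1, the collagen XVIII chain, was a DEG higher in RA at 0.66 (SE 0.129), and of the 6 fits that left out a sample only that without CON replicate 3 called it (0.51 to 0.78).

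Of 13 tested genes for cleavage or release of core proteins, 3 were DEGs higher and none lower, where 2.67% and 2.29% of all tested genes were. By the adjusted p alone 5 were higher and none lower, where 5.31% and 4.50% of all tested genes were. Gdpd5, a phosphodiesterase of the family that cuts GPI anchors, had 2.41, 4.05 and 3.86 FPKM in CON and 6.98, 7.34 and 7.88 FPKM in RA, a log2 fold change of 1.09 (SE 0.179, adjusted p = 0.00666 with edgeR). Mmp9, a gelatinase that can shed syndecans, rose by 2.88 on the log2 scale (SE 0.38) from 0.058 to 0.186 FPKM in CON to 0.843 to 1.24 FPKM in RA. Notum, a lipase that acts on Wnt proteins and was earlier described as cutting glypicans, had a log2 fold change of 0.77, and was a DEG in none of the 6 fits that left out a sample (0.67 to 0.84). Mmp14, a membrane protease and the most abundant of the list, was not a DEG, at 228 ± 8.58 FPKM in CON and 265 ± 6.53 FPKM in RA (SD, n = 3), with an adjusted p (edgeR) of 0.0602, and 0.0132 and 0.0488 without CON replicate 1 and 3.

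None of 11 tested partners of syndecan tails and none of 13 tested genes of GPI anchor assembly was a DEG. By the adjusted p alone 1 tail partner was higher and no anchor gene was called. This was Gipc1, a PDZ protein singled out after its values were seen, with 41.1, 47.2 and 49.8 FPKM in CON and 60.1, 58.6 and 62.7 FPKM in RA, a log2 fold change of 0.38 (adjusted p = 0.0248 with edgeR, and 0.0845 to 0.12 without CON replicate 2 or any RA replicate). The most abundant genes of these lists were Actn4, an actin crosslinker, at a log2 fold change of 0.11 (95% interval -0.017 to 0.24, and 0.067 without CON replicate 1), and Pigt, a subunit that attaches the anchor, at 0.045 (95% interval -0.12 to 0.21). Of 19 tested ligands, 2 were DEGs, both higher, and without CON replicate 1 or CON replicate 3 there was also 1 lower. Ihh, a hedgehog protein singled out after its values were seen, was low, at 0.229 to 0.313 FPKM in CON and 0.0297 to 0.12 FPKM in RA without overlap, and its log2 fold change of -1.63 (SE 0.468) had an adjusted p of 0.0669 with edgeR, and 0.0473 without CON replicate 1. Bmp4 had 11.2, 12.4 and 12.2 FPKM in CON and 19.3, 18.7 and 18.3 FPKM in RA, a log2 fold change of 0.64 (SE 0.0696, adjusted p = 0.000864 with edgeR). Fgf1, at most 0.6 FPKM, had a log2 fold change of 0.94 and was not a DEG without CON replicate 2 or any RA replicate (0.83 to 1.09). Fn1, fibronectin, was the most abundant ligand at 5335 ± 357 FPKM in CON and 6524 ± 162 FPKM in RA (SD, n = 3). Its log2 fold change of 0.28 (SE 0.0555) passed the adjusted p (0.0161 with edgeR) but not the fold change limit, and the adjusted p was 0.069, 0.089 and 0.104 without CON replicate 2, RA replicate 2 and RA replicate 3. By the adjusted p alone 5 ligands were higher and 1 lower. The lower was Thbs1, thrombospondin 1, singled out after its values were seen, with 1040, 1049 and 1131 FPKM in CON and 817, 849 and 782 FPKM in RA, a log2 fold change of -0.41 (SE 0.0571, adjusted p = 0.00299 with edgeR).

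**Figure D4:**
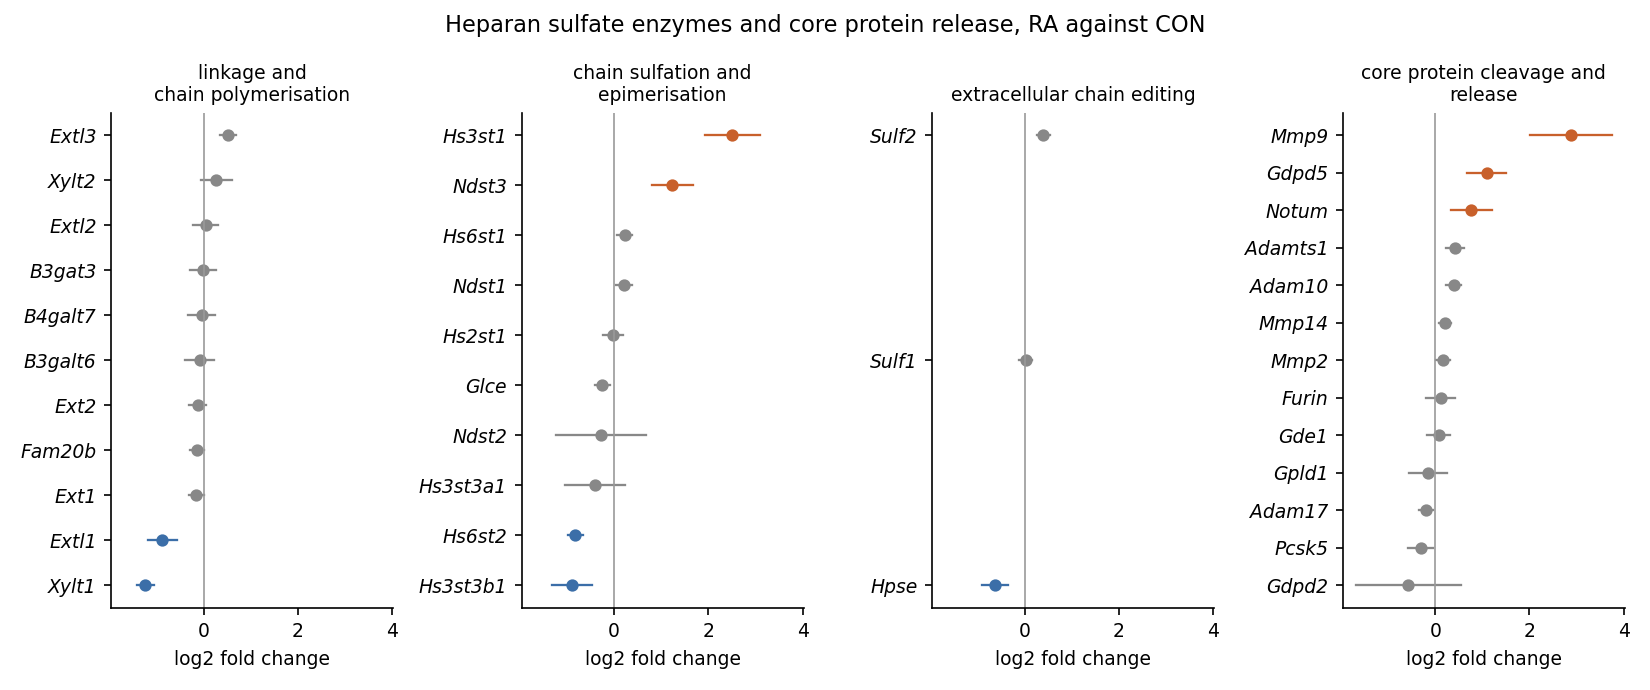
Log2 fold change of RA against CON with 95% intervals for the tested genes of 4 lists, with DEGs higher in RA in orange, lower in blue and the rest in grey. Xylt1 and Extl1 lie lowest among the chain-building enzymes, and Mmp9, Gdpd5 and Notum are the DEGs among the release genes.

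Of 13438 tested genes, those whose centred log2 CPM over the 6 samples lay nearest to that of Gpc3 included AABR07064613.2, Sec16b, Ptprd and the collagen gene Col11a1, at Euclidean distances of 0.141 to 0.169. The last of these is in the chondrocyte marker list. The part of chondrocyte identity in the values of the members was not tested. Other cell types the cultures could hold gave no DEG among 4 tested macrophage, 2 endothelial and 7 fibroblast markers, with summed levels of 13.7 to 14.9, 5.49 to 8.03 and 3836 to 5020 FPKM in CON and 16.4 to 17.7, 6.22 to 6.85 and 4977 to 5224 FPKM in RA. Of the fibroblast markers, 3 were higher and 1 lower by the adjusted p alone. Of the macrophage list Cd14 was highest, at 11.9 to 13.5 FPKM in CON and 14.5 to 15.8 FPKM in RA, then Cd68 at 0.912 to 1.15 and 1.25 to 1.30 FPKM, neither overlapping between groups, while Ptprc and Adgre1 had at most 0.027 FPKM. Of the endothelial list Egfl7 had 5.28 to 7.97 FPKM, and Cdh5 and Emcn at most 0.00809 FPKM. Of 3 tested muscle markers Myod1 (0.0681 to 0.432 FPKM) was higher and Tnnt3 lower, neither of them without CON replicate 2, RA replicate 1 or RA replicate 2, at a summed level of 9.29 to 10.9 FPKM in CON and 8.93 to 10.9 FPKM in RA, and of 5 tested neural markers S100b, which chondrocytes also express, was lower (2 lower without CON replicate 1 or CON replicate 3).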

How the data were processed

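Poly(A) RNA of 3 CON and 3 RA samples was sequenced on an Illumina HiSeq from NEBNext Ultra libraries, which do not mark strand. The submitters' processing notes name HISAT2, HTSeq 0.13.5 and the rat build Rnor_6.0. The annotation release and the handling of shared reads are not given in the sources used here, so that overlapping genes are uncertain. In RefSeq the spans of Gpc1, Gpc3, Gpc4 and Gpc6, introns included, overlap 3, 3, 1 and 7 other genes. Of these only 1, at Gpc1, is protein-coding. The authors deposited whole-number counts per gene without normalization, and an FPKM value that the authors scaled to gene length and to the sample's total count.

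Counts were tested in R 4.3.3 with edgeR 4.0.16 (filterByExpr with a minimum count of 10, TMM, glmQLFit and glmQLFTest, no covariates, all 6 samples), and p-values were adjusted over the 13438 genes by the Benjamini-Hochberg method. Standard errors came from the F statistic and intervals are at 95%, not adjusted for the number of genes. DEGs joined the FDR of 0.05 of the study to its fold change limit of 0.58. Summed FPKM were compared by exact permutation of the samples. Alternatives were library-size and DESeq2-type scaling, other filters on low counts, DESeq2 1.42.0, limma 3.58.1 on log2(FPKM + 0.1) and log2(FPKM + 1), the adjusted p alone, the unadjusted p with the fold change limit, each sample left out and a replicate block. The code was tested on simulated data. A floor of 3 counts was between 0.0789 and 0.102 CPM and covers counting error only. Every member was named, and of each pathway list every DEG and the gene with the highest mean FPKM. The members and lists were chosen with earlier results of these data known. The 5 genes nearest in profile to Gpc3 were also to be named, and 1 of them is not reported here.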

Additional observations from a re-analysis of the deposited data

How the results depend on the processing

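The 667 DEGs became 434 with limma on log2(FPKM + 1), 1319 by the adjusted p alone and 1017 by the unadjusted p with the fold change limit, and ranged from 480 to 755 when a sample was left out. Among the members, the single DEG became 0 with limma on log2(FPKM + 1) and 3 by the adjusted p alone, and was 1 to 2 when a sample was left out, the second being Gpc1. The 8 tested members kept the sign of their log2 fold change under every alternative except Sdc3, which ranged from -0.12 to 0.040 when a sample was left out and turned positive, at 0.040, without CON replicate 3. The difference in summed syndecan FPKM ranged from -6.15 to 2.56 when a sample was left out, with 0.181 without CON replicate 1 and 2.56 without RA replicate 3. That of glypicans ranged from -64.3 to -36.7 FPKM, and that of the syndecan share from 4.87 to 8.62 percentage points. Alternatives for genes of the pathway lists were chosen after seeing the data, and the sign of Pigt turned, to -0.0059, without CON replicate 1 (range to 0.12). CON and RA samples with the same replicate number did not deviate together across genes (r of 0.0709, -0.0117 and 0.00418). These values cannot show whether such samples shared animals or a batch, which the study does not state. With a replicate block 684 genes were DEGs, 1 of them a member. Notum and Rarb were no longer DEGs, and the adjusted p (edgeR) of Sdc2 and Gpc1 were 0.0484 and 0.0157, neither a DEG. With 3 samples a group, the exact tests could not pass 0.05. The cause of these changes was not tested.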
